A study of Homo sapiens with 4 samples.

Results

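Rows of the expression table under a LINC symbol with a number, the naming scheme for long intergenic noncoding RNAs that had no functional name, were examined for recovery with Flag-tagged QKI7. The members were chosen by their symbol and by their level: of 907 LINC rows among 26830 gene rows, the 129 that averaged 0.5 TPM or more across the 4 libraries were kept. TPM is a length-normalised share of a library. The 2 groups were Flag-RIP (2 libraries of RNA precipitated with a Flag antibody) and input (2 libraries of RNA from the lysate, with no antibody). Both came from U2OS, a human osteosarcoma cell line, infected with a lentivirus for 3 x Flag-QKI7 and expanded from GFP-positive cells without further treatment. RNA and protein were joined by ultraviolet light, and the lysates were sonicated. The labels describe the RNA as ribozero RNA, a name for depletion of ribosomal RNA. Nothing in the labels says that the replicates came from separate cultures, and the p-values therefore cover only how far these libraries spread, which may be technical. No precipitate from untagged cells, and none with another antibody, was analysed here.

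Long noncoding RNAs are transcribed, and mostly spliced and polyadenylated, without coding for a known protein. Many stay in the nucleus near their gene, and others act in the cytoplasm, for example as binding platforms for RNA-binding proteins. QKI is a STAR-family protein that binds RNA through the ACUAAC motif and works in splicing, RNA stability and translation. QKI7 is one of the isoforms that differ in their last residues. Some genes first listed under LINC symbols were later found to code for small proteins.

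The label of an intergenic noncoding RNA did not hold for every row. All 129 rows matched a RefSeq gene of GRCh38.p14, 110 by their symbol and 19 by an older name of 1 gene. RefSeq annotated 121 as lncRNA, 7 as protein-coding and 1, LINC01296 (now DUXAP9), as a transcribed pseudogene. The spans of 55 members overlapped another protein-coding or lncRNA gene, and 21 had the start of a gene on the other strand within 1000 bases of their own start. The library kit was a stranded one per the labels' protocols, but no label gives the strand setting of the counting, so reads of overlapping genes may be mixed in these rows.

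The members were low in the inputs and higher in every Flag-RIP total. Their summed TPM was 487 and 432 in the Flag-RIP libraries and 64.1 and 98.7 in the inputs, or 0.0487% and 0.0432% of all TPM in Flag-RIP against 0.00641% and 0.00987% in input. At least 1 TPM was reached by 112 and 114 members in Flag-RIP, against 14 and 28 in input. The median member had a mean of 1.17 TPM over the 4 libraries, and 3 members exceeded 10. Because the floor was set on the mean of all 4 libraries, 86 members passed it only through their Flag-RIP values, with an input mean under 0.5 TPM. Such members had to be higher in Flag-RIP, and counts over the members are descriptions for that reason. The rows just under the floor were LINC00910, LINC00921 and LINC01060, with means of 0.498, 0.493 and 0.49 TPM. Those just over it were LINC01106, LINC00163 and LINC00226, with means of 0.505, 0.518 and 0.518 TPM.

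The whole libraries differed in scale, and this decides which reading a change is given. Over the 12703 tested genes the median TPM was 4.37 and 4.16 in Flag-RIP against 0.93 and 1.46 in input. RN7SL1 and RN7SL2, which give the RNA of the signal recognition particle, together took 39.8% and 43.4% of TPM in Flag-RIP against 84.6% and 79.7% in input, and since TPM is a share, every other row's deposited TPM moves with theirs. The ERCC spike-ins, synthetic RNAs whose amount and time of addition no label gives, took 18.9% and 25.6% of TPM in Flag-RIP against 2.78% and 3.89% in input. QKI itself had 60.7 and 42.0 TPM in Flag-RIP against 3.83 and 5.85 TPM in input, and these values join reads from the transgene with those from the cell's own gene. Of 7 mesenchymal and osteoblast markers, 5 reached 1 TPM in both inputs and COL1A2 in neither. None of 6 markers of blood, epithelium, liver and glia reached 1 TPM in an input. Their summed TPM was 1.46 and 1.10 in Flag-RIP against 0.27 and 0.32 in input, with CD3E and ALB at 0 in both inputs. Changes below are centred: log2(TPM + 0.1) minus the median of each library over the tested genes, Flag-RIP minus input, so that 0 stands for a gene that moved with the median gene.

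As deposited, 121 of the 129 members rose in Flag-RIP and 0 fell at the 0.05 threshold on limma's adjusted p, beside 90.7% and 0.37% of all tested genes. The 8 members that did not pass as deposited were LINC00116, LINC00998, LINC01420, LINC01002, LINC00152, LINC00467, LINC00920 and LINC01023, of which LINC01002 is named after its values were seen. In 126 members both Flag-RIP values lay above both input values in plain TPM. That count was not made over all tested genes, and 86 members passed the floor only through Flag-RIP.

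Relative to the library medians, 48 members rose, 6 fell and 75 did not pass (limma, adjusted p under 0.05). Among all tested genes 14.7% rose and 24.3% fell. Of the members that rose, 32 did so by at least 2-fold, and 6.05% of all tested genes rose by at least 2-fold. At least 4-fold was reached by 9 of these members, a count that was not made over all tested genes. The median change of the members was 0.44, with quartiles of 0.02 and 1.04, against a median of -0.08 with quartiles of -0.50 and 0.34 over all tested genes. In plain TPM the median ratio of Flag-RIP to input means was 5.63 over the members and 3.46 over the 12620 tested genes with an input above 0. With the floor set on the input mean alone, 43 members were tested, of which 17 rose and 4 fell, against 16.4% and 28.1% of all genes tested that way, and the medians were 0.39 and -0.11.

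These counts depended on how low values were handled and on the scale. With a pseudocount of 1, 28 members rose and 23 fell, against 15.4% and 27.5% of all tested genes, and the members' median was -0.18 beside -0.17 for all genes. With libraries scaled to the spike-ins, 22 rose and 23 fell, against 2.98% and 53.6%. The plot of medians by setting gives the members and all tested genes side by side. Without input replicate 1 the centred counts were 22 and 3, against 4.09% and 6.77% of all tested genes, and without input replicate 2 they were 29 and 4, against 7.68% and 14.4%.

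**Figure D1:**
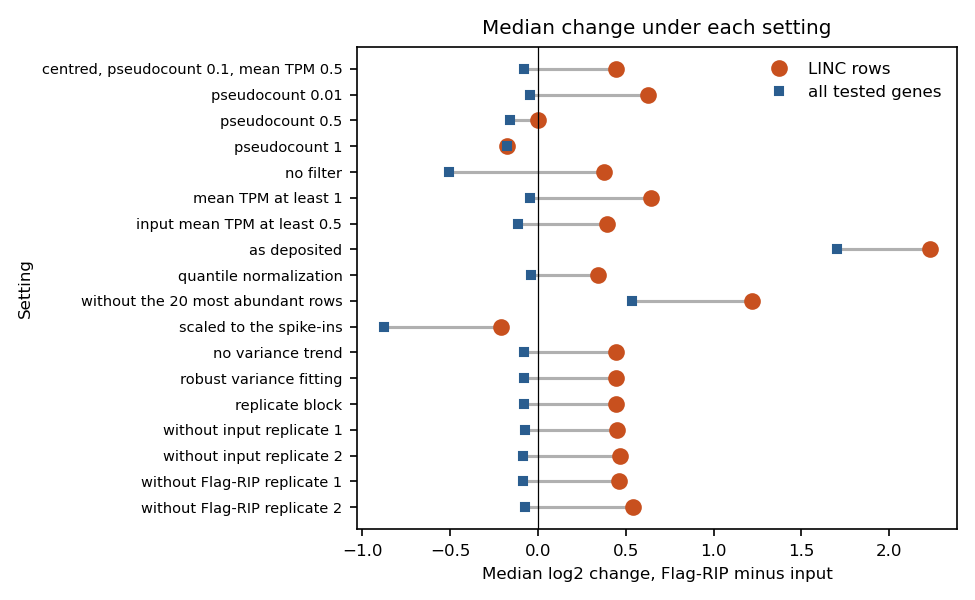
Median log2 change, Flag-RIP minus input, of the LINC members and of all tested genes under each processing setting. Changes are centred except where another scaling was used. Those settings are as deposited, quantile normalization, without the most abundant rows, and the spike-in scale. The members' median is above that of all tested genes in each setting but a pseudocount of 1, where the medians are -0.18 and -0.17, and both lie below 0 on the spike-in scale.

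**Figure D2:**
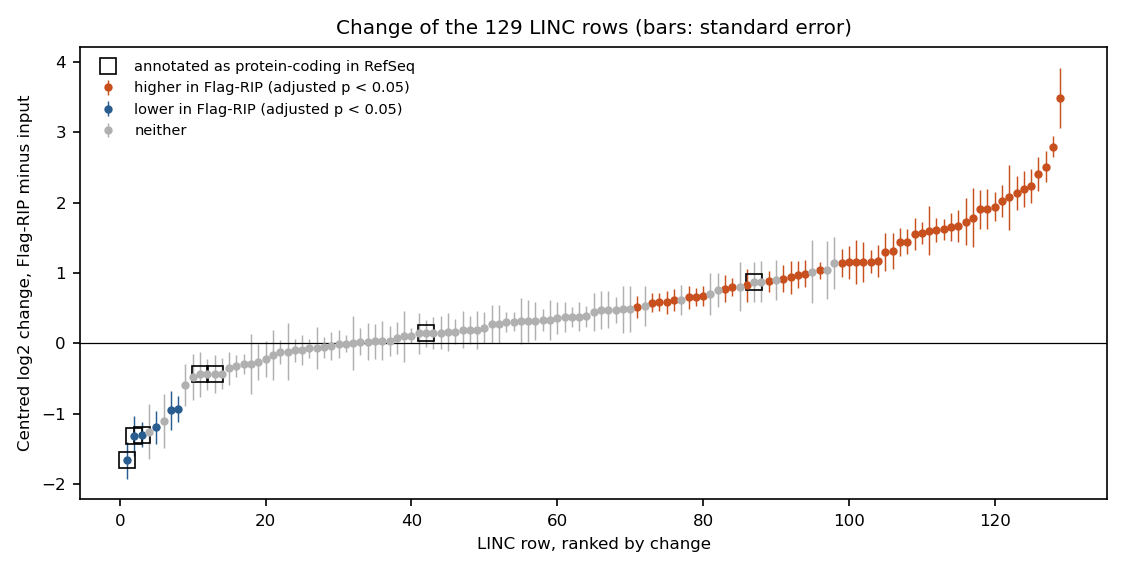
Centred log2 change (Flag-RIP minus input) of each of the 129 LINC rows, ranked from lowest to highest, with standard errors from limma as bars. The 48 rows called higher lie towards the right, among rows up to 1.14 that did not pass, the 6 called lower lie towards the left, and 3 of those 6 are among the 7 rows that RefSeq annotates as protein-coding.

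Sequences at the start of the transcripts are shown for 2 members that rose, for LINC00152, which fell and had the highest inputs, and for the members with the QKI motif there, because the start is the only part of these RNAs whose sequence was given. Each line gives the 50 bases from the annotated start in RefSeq, GRCh38.p14, 5′ to 3′ on the gene's strand, with ACTAAC in capitals.
LINC01278, chrX:63561046-63561095, minus strand: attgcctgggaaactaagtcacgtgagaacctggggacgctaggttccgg
LINC01021, chr5:27472292-27472341, plus strand: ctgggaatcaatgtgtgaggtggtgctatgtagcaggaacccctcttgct
LINC00152, chr2:87455427-87455476, plus strand: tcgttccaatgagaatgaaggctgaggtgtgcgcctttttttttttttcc
LINC01515, chr10:65571425-65571474, plus strand: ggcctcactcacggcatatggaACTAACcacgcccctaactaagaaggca
LINC01583, chr15:82088594-82088643, plus strand: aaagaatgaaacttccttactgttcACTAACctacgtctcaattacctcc
LINC00662, chr19:27793891-27793940, minus strand: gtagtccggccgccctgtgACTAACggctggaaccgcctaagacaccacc

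A start sequence was given for 92 of the 129 members. ACTAAC, searched on the transcribed strand only, occurred in these 50 bases in 3 of the 92, or 3.26%, against 0.392% of 27305 RefSeq starts, and ACTAAT occurred in 0 of the 92 against 0.418%. The motifs are of equal length and differ in their last base, so no occurrence counts for both. The 3 members with the motif, LINC01515, LINC01583 and LINC00662, had centred changes of 0.20, 0.02 and -0.10, and none passed the test. LINC01515 and LINC01583 are named after their sequences were seen. The other parts of these RNAs were not searched, so a motif further along a transcript is not covered by these counts.

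LINC01278 had the largest change of the members. This lncRNA lies on chromosome X from 63426558 to 63561095, and no other RefSeq gene overlaps its span. Its TPM was 40.2 and 15.3 in Flag-RIP against 0.38 and 0.76 in input, so both precipitates lay far above both inputs while differing 2.63-fold from each other. The centred change was 3.49 (SE 0.43, limma adjusted p = 0.0094). It ranged from 2.83 without Flag-RIP replicate 1 to 4.15 without Flag-RIP replicate 2.

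LINC00342, on chromosome 2 from 95807052 to 95826981, was also far above the inputs and its precipitates were closer to each other. It had 20.2 and 18.0 TPM in Flag-RIP against 0.48 and 1.00 TPM in input. Its centred change was 2.80 (SE 0.15, limma adjusted p = 0.0060), the smallest adjusted p of any member.

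LINC01021, now PURPL, is known as a p53-induced RNA that lowers p53 levels, and lies on chromosome 5 from 27472292 to 27496401. Its TPM was 17.6 and 14.3 in Flag-RIP against 0.54 and 1.49 in input. The centred change was 2.20 (SE 0.26, limma adjusted p = 0.0092). The groups did not overlap, and on the log2 scale the inputs lay further apart than the precipitates.

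The other members among the 8 largest increases had at most 0.39 TPM in either input. LINC00174, on chromosome 7 from 66376044 to 66400408, had 3.11 and 3.96 TPM in Flag-RIP against 0.06 and 0.11 TPM in input, a centred change of 2.52. LINC00564, on chromosome 13 from 81225865 to 81226983, had 4.38 and 4.86 TPM in Flag-RIP against 0.07 and 0.29 TPM in input, a change of 2.41. In such rows the fold rests on the small input value, and the pseudocount of 0.1 is as large as some of the inputs.

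LINC00552, on chromosome 13 from 113748511 to 113751089, had 7.25 and 4.34 TPM in Flag-RIP against 0.21 and 0.30 TPM in input, a change of 2.24. LINC01410, on chromosome 9 from 62801465 to 62813486, had 4.72 and 4.51 TPM in Flag-RIP against 0.10 and 0.38 TPM in input, a change of 2.14. LINC01139, also called LINK-A and described as a cytoplasmic RNA that promotes kinase activation, lies on chromosome 1 from 238480384 to 238486017. It had 11.3 and 4.33 TPM in Flag-RIP against 0.39 TPM in each input, a change of 2.08 (SE 0.46, limma adjusted p = 0.022) that lost its call without input replicate 2 (1.78, limma adjusted p = 0.067) and ranged from 1.43 to 2.72 when other libraries were left out. The remaining 7 of the 8 kept their call and direction under each of the 17 alternatives in which they could be tested. On the spike-in scale their changes were between 1.38 for LINC01021 and 2.73 for LINC01278. LINC00174, LINC00564, LINC00552, LINC01410 and LINC01139 had input means under 0.5 TPM. They passed the floor only through Flag-RIP and were not tested with the floor on the input mean.

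**Figure D3:**
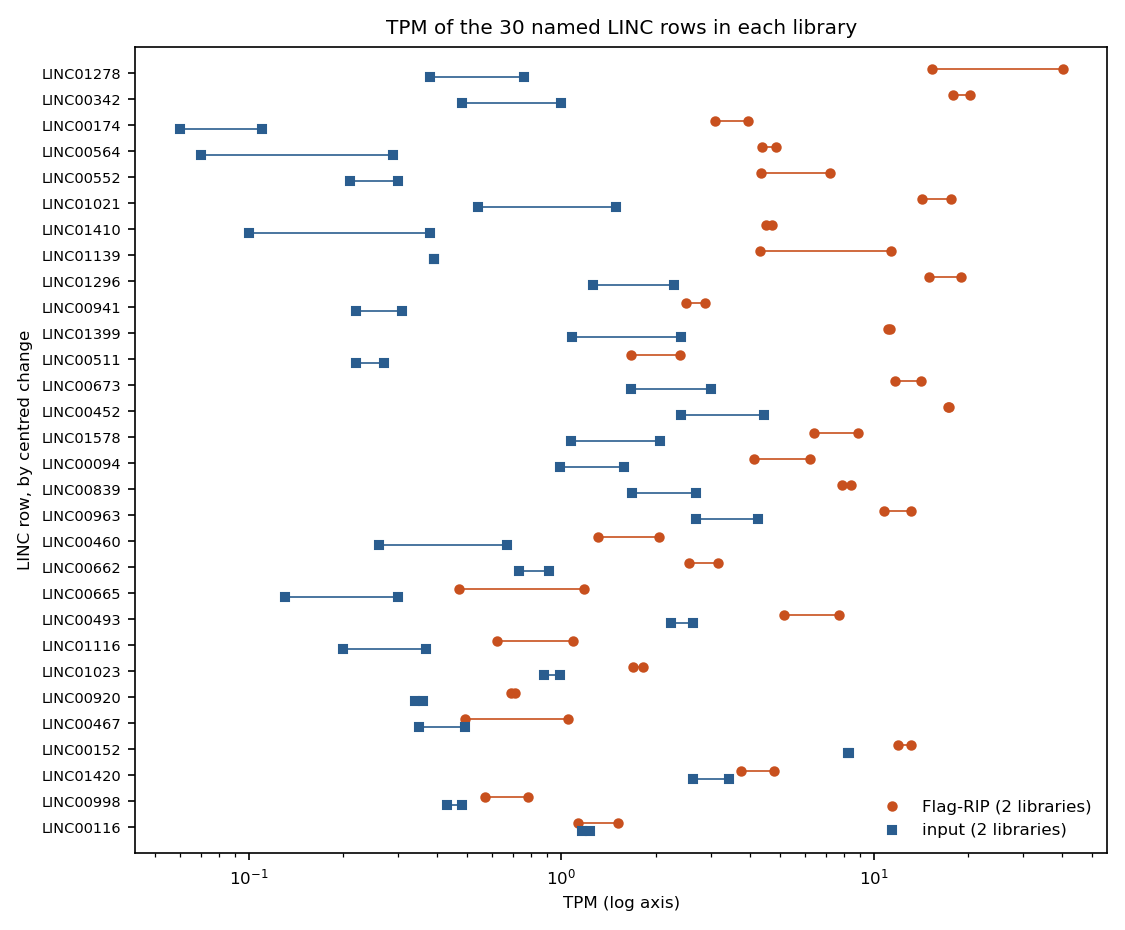
TPM on a log axis of the 30 named LINC rows in each library, Flag-RIP as circles above input as squares, ordered by centred change. The precipitates lie far right of the inputs for LINC01278 and LINC00342 and close to them for LINC00116 and LINC01420.

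The changes of the 10 most abundant members ran from 3.49 for LINC01278 to -1.20 for LINC00152. Beside LINC01278, LINC00342 and LINC01021, the pseudogene LINC01296 had 14.96 and 18.9 TPM in Flag-RIP against 1.26 and 2.29 TPM in input and rose by 1.45 (SE 0.18, limma adjusted p = 0.0094), a call lost on the spike-in scale (0.56, limma adjusted p = 0.17). DUXAP9 belongs to a set of similar double-homeobox pseudogenes, so the division of reads among the copies is uncertain. LINC01399, on chromosome 22, had 11.2 and 11.1 TPM in Flag-RIP against 1.08 and 2.42 TPM in input and rose by 0.92 (limma adjusted p = 0.018). It did not pass without input replicate 1 (0.68, limma adjusted p = 0.067) or on the spike-in scale (0.043, limma adjusted p = 0.92).

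LINC00452, on chromosome 13, had 17.2 and 17.4 TPM in Flag-RIP against 2.42 and 4.45 TPM in input and rose by 0.58 (limma adjusted p = 0.026). That call was lost without input replicate 1 (0.45), without Flag-RIP replicate 1 (0.62) and without Flag-RIP replicate 2 (0.54), and on the spike-in scale the change was -0.34 (limma adjusted p = 0.42). LINC00963 moved like the median gene, with 13.1 and 10.8 TPM in Flag-RIP against 2.69 and 4.25 TPM in input and a change of -0.00096 (SE 0.12, limma adjusted p = 0.996). LINC00839 had 8.46 and 7.92 TPM in Flag-RIP against 1.68 and 2.70 TPM in input, a change of 0.11 that did not pass (limma adjusted p = 0.45). In all of these rows the plain TPM was higher in both precipitates, and the change relative to the median ran from 3.49 to values at 0.

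Of the abundant members, LINC00152 fell relative to the median. LINC00152 is now CYTOR, the cytoskeleton regulator RNA, and lies on chromosome 2 from 87455427 to 87521518, where it overlaps other lncRNA genes. Its TPM was 11.9 and 13.1 in Flag-RIP against 8.33 and 8.24 in input, a plain ratio of 1.51 where the median tested gene had 3.46. Its inputs were the highest of any member, while LINC01278, LINC00342, LINC00452, LINC01296 and LINC01021 exceeded it in both precipitates. The centred change was -1.20 (SE 0.23, limma adjusted p = 0.016), and -1.09 without Flag-RIP replicate 1, where it no longer passed (limma adjusted p = 0.054).

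Of the 6 members that fell, 3 are now annotated as genes of small proteins. Of 8 such genes listed from background knowledge, 5 were members, of which 3 fell and 0 rose, with a median change of -1.30. The list was chosen with earlier results of these data known, and beside it 24.3% of all tested genes fell. LINC00116, now MTLN, codes for mitoregulin, a small protein of the inner mitochondrial membrane, and lies on chromosome 2 from 110211529 to 110212547. Its TPM was 1.52 and 1.13 in Flag-RIP against 1.23 and 1.16 in input, so the groups overlapped in plain TPM. Relative to the library medians its change was the lowest of the members at -1.66 (SE 0.26, limma adjusted p = 0.011).

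LINC00998, now SMIM30, codes for a small membrane protein and lies on chromosome 7 from 113116718 to 113118554. It had 0.57 and 0.78 TPM in Flag-RIP against 0.43 and 0.48 TPM in input and fell by 1.31 (limma adjusted p = 0.022). Its call was lost without input replicate 1 (-1.08, limma adjusted p = 0.20), without input replicate 2 (-1.55, limma adjusted p = 0.064) and without the 20 most abundant rows (-0.73, limma adjusted p = 0.195). In that last setting the other rows are rescaled to an equal total without centring. LINC01420, now NBDY, codes for a polypeptide that binds the mRNA decapping complex of P-bodies, and lies on chromosome X from 56729243 to 56819179. It had 3.75 and 4.80 TPM in Flag-RIP against 2.63 and 3.43 TPM in input and fell by 1.30 (SE 0.18, limma adjusted p = 0.0097).

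LINC00493, now SMIM26, which codes for a small mitochondrial protein, had 7.74 and 5.17 TPM in Flag-RIP against 2.64 and 2.24 TPM in input and a change of -0.44 (limma adjusted p = 0.32). LINC00094, now BRD3OS, is annotated on the strand opposite the bromodomain gene BRD3 and overlaps it. It had 6.24 and 4.12 TPM in Flag-RIP against 0.99 and 1.59 TPM in input and a change of 0.15 (limma adjusted p = 0.57). Of the 3 other listed genes, LINC00961 and LINC00675 were LINC rows under the floor and LINC00948 stood in the table as MRLN. RefSeq annotated 2 further members as protein-coding, both named after this was seen: LINC00634 (now SMIM45) with a change of -0.43 and LINC00176 (now C20orf204) with 0.88, neither past the test. Over all 7 protein-coding members the median was -0.44, with 0 called higher and 3 lower, against 0.48 over the 121 lncRNA members, with 47 called higher and 3 lower. The difference between these annotation classes was not tested.

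The lower calls among lncRNA rows beside LINC00152 were of rare RNAs. LINC01023, a gene of 437 bases on chromosome 5 from 108727825 to 108728261, had 1.70 and 1.83 TPM in Flag-RIP against 0.88 and 0.99 TPM in input and fell by 0.93 (limma adjusted p = 0.018). Its call was lost without input replicate 1 (-0.71), without Flag-RIP replicate 1 (-0.85) and without the 20 most abundant rows (-0.37, limma adjusted p = 0.34). LINC00920, on chromosome 16 from 66408524 to 66410901, had 0.69 and 0.71 TPM in Flag-RIP against 0.34 and 0.36 TPM in input, a change of -0.95 near the threshold (limma adjusted p = 0.044) that was lost when any 1 library was left out (-1.22 to -0.69) and without the 20 most abundant rows (-0.29, limma adjusted p = 0.65). Both rows roughly doubled in plain TPM, with ratios of 1.89 for LINC01023 and 2.00 for LINC00920.

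Of 18 LINC genes listed because they are often described in cultured or tumour cells, 11 were members, of which 3 rose, 1 fell and 7 did not pass, beside 14.7% higher and 24.3% lower among all tested genes. Their median was -0.06, near that of all tested genes. Those that rose were LINC00941, LINC00511 and LINC00673, and LINC00152 fell. LINC00941, on chromosome 12, had 2.88 and 2.51 TPM in Flag-RIP against 0.22 and 0.31 TPM in input and rose by 1.16 (SE 0.16, limma adjusted p = 0.0097). The call was lost with a pseudocount of 1 (0.27, limma adjusted p = 0.14) and on the spike-in scale (0.58, limma adjusted p = 0.19).

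LINC00511 and LINC00673 lie beside each other on the minus strand of chromosome 17, LINC00511 from 72598041 to 72640472 and LINC00673 from 72403322 to 72592804. LINC00673 had 14.1 and 11.7 TPM in Flag-RIP against 1.67 and 3.01 TPM in input and rose by 0.68 (limma adjusted p = 0.019). The call was lost without input replicate 1 (0.57) and without Flag-RIP replicate 1 (0.58), and on the spike-in scale the change was -0.22 (limma adjusted p = 0.60). LINC00511 had 2.39 and 1.67 TPM in Flag-RIP against 0.22 and 0.27 TPM in input and rose by 0.83 (limma adjusted p = 0.045), a call lost without input replicate 1 (1.02), without input replicate 2 (0.63) and without Flag-RIP replicate 1 (0.61), and with pseudocounts of 0.5 (0.24) and 1 (0.00069), after quantile normalization (0.71) and on the spike-in scale (0.27).

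LINC01578, now CHASERR, a lncRNA that represses the neighbouring CHD2 gene, lies on chromosome 15 from 92882843 to 92898747. Its TPM was 8.91 and 6.41 in Flag-RIP against 1.07 and 2.07 in input, and its change of 0.48 did not pass (limma adjusted p = 0.094). LINC00467 had 0.49 and 1.05 TPM in Flag-RIP against 0.35 and 0.49 TPM in input, with a change of -1.11 that did not pass (limma adjusted p = 0.073). The Flag-RIP value of its replicate 1 equalled the higher input.

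The other 4 described members had changes between -0.48 and -0.06 without passing. LINC01116 had 0.62 and 1.09 TPM in Flag-RIP against 0.20 and 0.37 TPM in input, LINC00665 had 1.18 and 0.47 TPM in Flag-RIP against 0.13 and 0.30 TPM in input, and their changes were -0.48 and -0.29. LINC00662 had 3.16 and 2.56 TPM in Flag-RIP against 0.73 and 0.91 TPM in input, LINC00460 had 1.31 and 2.05 TPM in Flag-RIP against 0.26 and 0.67 TPM in input, and their changes were -0.10 and -0.06. In each of these rows both precipitates exceeded both inputs in plain TPM, by about as much as the median gene. Of the listed genes that were not members, 4 stood in the table under another symbol, among them LINC00657 as NORAD, the RNA that binds Pumilio proteins, 2 were under the floor and LINC00205 was not analysed here.

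Changes are given by level as a description only, because the mean over the 4 libraries that sets the level also chose the members. It holds the Flag-RIP values, so a high Flag-RIP value raises both the level and the change. Among genes with a mean TPM of 0.5 to 1, the 49 members had a median of 0.28 and all 2288 tested genes 0.02. From 1 to 2 TPM the medians were 0.41 over 42 members and 0.02 over 2666 genes, and from 2 to 5 TPM they were 0.58 over 27 members and -0.05 over 3752 genes. At 5 TPM and above, 11 members had a median of 0.92, with 8 called higher and 1 lower, and all 3997 tested genes had -0.27, with 14.6% called higher and 40.3% lower. By input level the order was the opposite among the members: Spearman's rho between change and input mean was -0.397 over the 129 members and -0.464 over all 12703 tested genes. Both are descriptions across genes, and the same input value enters both measures. With the length of the annotated gene span, rho over the members was 0.05.

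**Figure D4:**
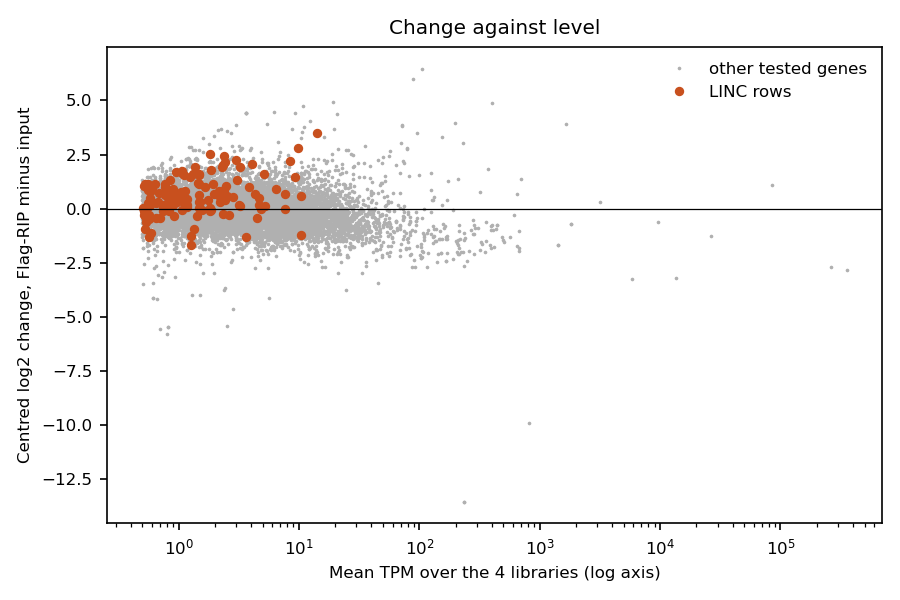
Centred log2 change (Flag-RIP minus input) against the mean TPM over the 4 libraries on a log axis, LINC rows in colour and all other tested genes in grey. The members lie at low levels, mostly above 0, with LINC01278 at 3.49 the highest of them, and genes outside the LINC rows reach further in both directions.

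The same values are given for other classes of noncoding rows. The 210 tested antisense rows had a median of 0.39, with 29.5% called higher and 4.76% lower. All 434 lncRNA rows outside the members, antisense rows included, had a median of 0.44, with 31.1% called higher and 7.60% lower, against 37.2% and 4.65% of the members. The 12 microRNA host genes had a median of 0.89, with 6 called higher and 0 lower. The 19 SNHG rows, the host genes of small nucleolar RNAs, had a median of -0.66, with 3 called higher and 9 lower. The 11222 protein-coding rows outside the members had a median of -0.12, with 1457 called higher and 2941 lower. Differences between the classes were not tested.

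**Figure D5:**
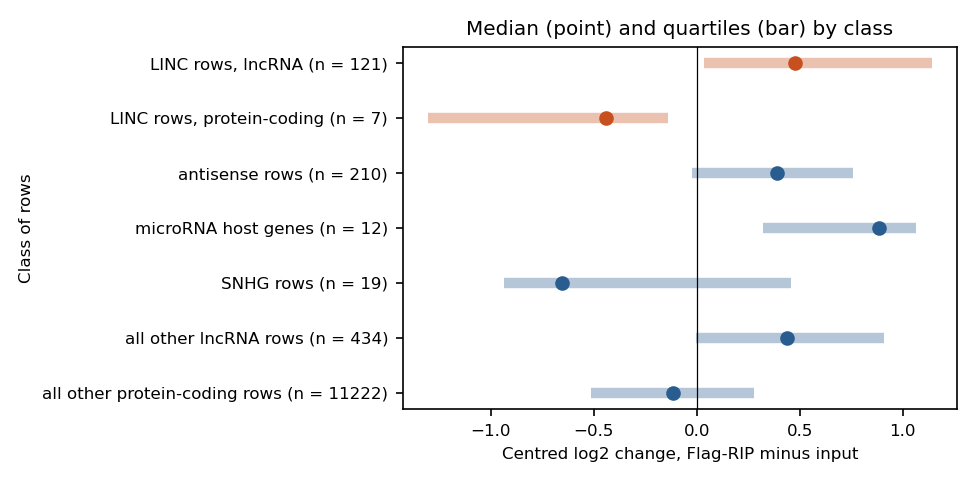
Median (point) and quartiles (bar) of the centred log2 change, Flag-RIP minus input, in classes of tested rows. The 121 lncRNA members have a median of 0.48 beside 0.44 for all other lncRNA rows and -0.12 for all other protein-coding rows, and the 7 protein-coding members have -0.44.

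Calls are also given by overlap with other genes. Of the 74 members whose span overlapped no other protein-coding or lncRNA gene, 35 rose and 4 fell, with a median of 0.62. Of the 55 that did overlap one, 13 rose and 2 fell, with a median of 0.28. Over all tested genes 14.7% rose and 24.3% fell. Among the 21 members with an opposite start within 1000 bases, 5 rose and 0 fell, with a median of 0.31. These differences, and the part of shared reads in them, were not tested.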

How the data were processed

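The authors deposited 1 table of TPM values with a column for each library. STAR, RSEM (version 1.2.31) and the build GRCh38 are named per the submitters' processing notes. Annotation and filters: not given in the sources used here. Columns sum to 1000000 within rounding over 26830 gene rows and 92 ERCC rows. TPM keeps no depth, so no counting interval is given. Columns were assigned to Flag-RIP or input from the sample titles. ERCC rows were left out of the tests. The 12703 genes averaging 0.5 TPM or more were tested on log2(TPM + 0.1) by limma (version 3.58.1, under R 4.3.3; lmFit, then eBayes with trend), each library centred on its median, two-sided, with Benjamini-Hochberg adjustment over all of them. The fit had 2 residual and 3.17 prior degrees of freedom. The pseudocount is lower than 1 because most members lie near 1 TPM. The procedure was tested on simulated data with equal noise in every gene and library. In the real libraries the standard deviation between replicates on the centred scale was 0.24 for input and 0.47 for Flag-RIP. Named were the 10 most abundant members, the 8 largest increases and decreases past the threshold without overlap (6 decreases qualified), the members of both gene lists, and the 3 rows on each side of the floor. Members and lists were chosen with earlier results of these data known. Alternatives were pseudocounts, filters, scalings, variance models, a replicate block and leaving out each library. A pseudocount of 0.01 was added after seeing the data.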

Additional observations from a re-analysis of the deposited data

How the results depend on the processing

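The precision is limited by 2 libraries per group, by low inputs and by the lack of a read depth in TPM. Under the 17 alternatives the counts of members higher and lower moved beyond 1.5 times the centred counts of 48 and 6. The cause was not tested, and the counts were as follows. With a pseudocount of 0.5 they were 31 and 12, beside 1682 higher and 3029 lower of all 12703 tested genes. With a pseudocount of 1 they were 28 and 23. With a floor on the input mean 17 members were higher. That setting tested 43 members rather than 129, so its count cannot be set beside 48. The counts of members higher and lower were 121 and 0 as deposited, 87 and 3 without the 20 most abundant rows, and 22 and 23 on the spike-in scale. Leaving out 1 library gave 22 to 54 higher and 3 to 8 lower. Over all tested genes the counts were 11527 and 47 as deposited, 4747 and 773 without the 20 most abundant rows, and 378 and 6809 on the spike-in scale, with 7556 lower without a filter, and 520 to 2161 higher and 860 to 3114 lower with 1 library left out. The members' median of 0.44 became 0.63 with a pseudocount of 0.01, 0.0026 with 0.5 and -0.18 with 1. It was 0.64 over genes averaging 1 TPM or more, 2.23 as deposited, 0.34 after quantile normalization, 1.22 without the 20 most abundant rows, -0.21 on the spike-in scale, and 0.45 to 0.54 with 1 library left out. The plot of medians by setting shows that the members' median lay above that of all tested genes in the main setting and in 16 of the alternatives, the exception being a pseudocount of 1. Changes of named members turned sign as follows, and outside the as-deposited setting the cause was not tested. As deposited no library median is taken off, so every gene's change is higher than its centred change by the same amount. The turns in that setting follow from this shift. As deposited these changes were positive: LINC00116 0.13, LINC00152 0.59, LINC00460 1.73, LINC00467 0.68, LINC00493 1.34, LINC00662 1.69, LINC00665 1.49, LINC00920 0.83, LINC00963 1.78, LINC00998 0.47, LINC01023 0.85, LINC01116 1.30 and LINC01420 0.49. On the spike-in scale other named members had negative changes: LINC00094 -0.71, LINC00452 -0.34, LINC00673 -0.22, LINC00839 -0.79 and LINC01578 -0.39. Without the 20 most abundant rows LINC00460 was at 0.67, LINC00493 at 0.086, LINC00662 at 0.51, LINC00665 at 0.61, LINC00963 at 0.52 and LINC01116 at 0.30. LINC00963, at -0.00096, became 0.062 over genes averaging 1 TPM or more, 0.083 with the floor on the input mean, 0.16 and 0.28 with pseudocounts of 0.5 and 1, and 0.20 after quantile normalization. LINC00460 became 0.0054 over genes averaging 1 TPM or more and 0.082 with a pseudocount of 0.01, which was chosen after seeing the data. With 1 library left out LINC00094 ranged from -0.11 to 0.41, LINC00460 from -0.40 to 0.28, LINC00662 from -0.26 to 0.060, LINC00665 from -0.84 to 0.26 and LINC00963 from -0.10 to 0.10. The replicate numbers do not pair the libraries by the labels, and deviations of same-numbered libraries correlated at -0.059 over 12703 genes. With the replicate number as a block, 44 members were higher and 6 lower, beside 1791 higher and 2770 lower of all 12703 tested genes. The members' median stayed at 0.44 under the block, and LINC00920 no longer passed (limma adjusted p = 0.058).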

Other observations

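Members on chromosome 13 were not part of any comparison above as a group, and are described here after their values were seen. The 7 members there had a median centred change of 1.31, the highest of any chromosome, and the 8 members on chromosome 7 had 1.07. Of the chromosome 13 members, 5 were called higher, beside 37.2% of all members and 14.7% of all tested genes. LINC00564, LINC00552, LINC00442, LINC00539 and LINC00460, all on chromosome 13, passed the floor only through Flag-RIP, with input means under 0.5 TPM. LINC00565 (now SWINGN), from 113926514 to 113928991, had 8.43 and 10.4 TPM in Flag-RIP against 0.62 and 1.00 TPM in input and a change of 1.62 (SE 0.15, limma adjusted p = 0.0092). LINC00565 overlaps the protein-coding gene C13orf46 on the same strand and lies next to LINC00452, whose change was 0.58. The part of shared reads in the LINC00565 values was not tested. Among chromosomes no test was made.

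Some members share a start region or overlap on opposite strands. LINC00667 and LINC00526 start 71 bases apart on opposite strands. LINC00667 had 8.11 and 6.59 TPM in Flag-RIP against 0.95 and 1.66 TPM in input and rose by 0.66 (SE 0.13, limma adjusted p = 0.018), and LINC00526 had 2.30 and 1.49 TPM in Flag-RIP against 0.30 and 0.49 TPM in input with a change of 0.22 (limma adjusted p = 0.45). LINC01271 and LINC01270 overlap on opposite strands, with changes of 0.66 (limma adjusted p = 0.030) and 0.48 (limma adjusted p = 0.20). The difference within each pair was not tested.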
